A study of Mus musculus with 48 samples.

Results

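A set of 10 genes of the MHC class I antigen presentation pathway was followed through 48 RNA-seq libraries of mouse skeletal muscle, across genotype, tumor and circadian time. They were the heavy chain genes H2-K1, H2-D1, H2-Q4, H2-Q6, H2-Q7, H2-T22 and H2-T23, the light chain gene B2m, the peptide transporter subunit gene Tap1 and the loading chaperone gene Tapbp. They were found by gene name, and 10 of 10 matched among the 56748 genes of the expression table. The names were chosen from a pathway list with earlier results of these same libraries known, including their levels and tumor comparisons, so the calls among them are a description of these libraries and not an independent test of the pathway.

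MHC class I molecules display peptides from inside a cell to CD8 T cells and natural killer cells. Proteins are cut by the proteasome, or by its interferon-induced form, the immunoproteasome, and the peptides are pumped into the endoplasmic reticulum by the Tap1/Tap2 transporter. There, tapasin (Tapbp) holds an empty heavy chain and beta-2 microglobulin (B2m) next to the transporter until a peptide binds. H2-K1 and H2-D1 are the classical, polymorphic heavy chains of the mouse, and the H2-Q and H2-T genes encode nonclassical ones, of which H2-T23 encodes Qa-1, a ligand of natural killer cell receptors. Nearly every nucleated cell makes some class I, adult muscle fibers are known for making little of it, and interferon raises the whole set through factors that include Irf1 and Nlrc5.

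The muscle was the tibialis anterior (TA) of male mice aged 39 to 55 weeks. WT mice carried no Cre, and the sources differ on them, since the series design gives floxed FoxP1fl/fl mice and the sample labels give C57BL/6J. FoxP1SkmKO mice were homozygous FoxP1fl/fl with a Cre driven by the ACTA1 (skeletal actin) promoter, which is active in muscle fibers, so that the other cells of the muscle keep Foxp1. KPC mice had murine KPC pancreatic cancer cells injected into the pancreas and control mice had PBS injected there. All mice were kept in constant darkness after a light/dark schedule of 12 hours each and were sampled at circadian time (CT) 18, 22, 26, 30, 34 or 38 h, with 2 mice for each genotype, tumor state and time, which gave 24 groups and 12 libraries for each genotype and tumor state.

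The libraries held 14480751 to 20787646 counts in genes, with a median of 16601833. The summed FPKM of 8 muscle fiber genes ran from 51370 to 68400, so every library carried the labelled tissue. Foxp1 itself was not called different between genotypes: mean FPKM was 0.63 ± 0.14 (SD, n = 12) in WT control and 0.578 ± 0.068 (SD, n = 12) in FoxP1SkmKO control libraries, a log2 difference of -0.11 ± 0.07 (SE, adjusted p = 0.459). The gene-level count includes exons outside the floxed part and RNA of cells without Cre. A single library stood apart in the genes described here, the FoxP1SkmKO control library of CT18, replicate 2: its summed FPKM over the 10 genes was 348.8, against 236.0 in the next highest FoxP1SkmKO control library, and the main results that rest on it are given with and without it. Albumin and 3 other liver transcripts summed to 61.5 FPKM in FoxP1SkmKO control CT22 replicate 1 and to 179.4 FPKM in FoxP1SkmKO KPC CT18 replicate 2, against 7.93 FPKM or less elsewhere.

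The heavy chain and B2m promoters are shown because they carry, within a short stretch, the letters to which interferon- and NF-kappaB-activated factors and the class I enhanceosome are known to bind. A total of 4 patterns were searched on both strands from 250 bases before to 50 bases after each RefSeq start site (build GRCm38.p6): AANNGAAA, the core of an interferon response element; GGNNTTNCC, a kappaB-like pattern; TGNTGAC, a CRE-like pattern; and CCAAT. Of 32851 mouse promoters, 23.9% held the first, 16.0% the second, 14.15% the third and 37.4% the fourth. Among the 10 genes the numbers were 8, 6, 8 and 10. All 4 patterns stood together in 86 of all promoters (0.262%) and in those of H2-K1, H2-D1, H2-Q4, H2-Q6, H2-Q7 and B2m, which is a description only, since the H2 genes are paralogs with promoters of shared descent. In the stretches printed here, 5′ to 3′, capitals mark each match on either strand, no match overlapped one of another pattern, and in H2-Q4 a pair of kappaB-like matches overlapped.
H2-K1 (chr17:34000334-34000478, minus strand, bases -145 to -1): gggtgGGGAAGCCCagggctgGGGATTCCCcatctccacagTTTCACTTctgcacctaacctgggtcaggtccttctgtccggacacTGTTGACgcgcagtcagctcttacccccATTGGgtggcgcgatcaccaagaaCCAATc
H2-D1 (chr17:35262903-35263050, plus strand, bases -191 to -44): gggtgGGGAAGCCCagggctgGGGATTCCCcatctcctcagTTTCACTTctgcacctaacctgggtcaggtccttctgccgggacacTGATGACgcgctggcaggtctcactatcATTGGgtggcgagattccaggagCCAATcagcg
H2-Q4 (chr17:35379439-35379571, plus strand, bases -178 to -46): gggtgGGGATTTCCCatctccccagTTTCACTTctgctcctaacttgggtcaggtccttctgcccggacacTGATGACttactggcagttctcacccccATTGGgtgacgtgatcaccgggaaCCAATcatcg
H2-Q7 (chr17:35439002-35439148, plus strand, bases -153 to -7): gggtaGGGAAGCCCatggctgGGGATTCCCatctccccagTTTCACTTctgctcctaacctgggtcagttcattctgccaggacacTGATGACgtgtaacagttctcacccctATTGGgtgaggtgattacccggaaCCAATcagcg
H2-T22 (chr17:36042796-36042948, minus strand, bases -206 to -54): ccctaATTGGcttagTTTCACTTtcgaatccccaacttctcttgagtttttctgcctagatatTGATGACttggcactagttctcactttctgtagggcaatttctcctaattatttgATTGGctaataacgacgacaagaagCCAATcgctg
B2m (chr2:122147545-122147643, plus strand, bases -142 to -44): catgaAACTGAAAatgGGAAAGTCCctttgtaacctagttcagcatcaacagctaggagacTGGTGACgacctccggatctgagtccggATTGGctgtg
H2-K1, H2-D1, H2-Q4, H2-Q7 and H2-T22 all show TTTCACTT, the interferon pattern read on the other strand. B2m shows it as AACTGAAA. The H2-T22 window held no kappaB-like match, and the Tap1 and Tapbp windows held only CCAAT.

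In mm39, the build of the files, 9 of the genes lie on chromosome 17 within the H2 complex and B2m lies on chromosome 2 (121978167 to 121983564, plus strand). Tapbp (34134873 to 34148266), H2-K1 (34214991 to 34219321) and Tap1 (34406527 to 34416199) stand at the start of the complex. H2-D1 (35481706 to 35486475), H2-Q4 (35598593 to 35604266), H2-Q6 (35643826 to 35649031) and H2-Q7 (35658131 to 35662749) follow, then H2-T23 (36340665 to 36343747) and H2-T22 (36348020 to 36353639). Because the heavy chains are close paralogs, reads can be shared between them. Of all stretches of 150 bases in its longest coding transcript, H2-Q7 shared 9.0% exactly with another gene. H2-Q6 shared 5.84% and H2-D1 shared 1.77%, while the other 7 genes shared 0.558% or less. At 50 bases the shares were 31.8% for H2-Q7, 33.1% for H2-Q6 and 35.9% for H2-T22. They were 24.2% for H2-Q4, 24.2% for H2-T23, 14.7% for H2-D1 and 8.1% for H2-K1, and B2m shared none. The levels of the heavy chains therefore depend on how the counting assigned shared reads.

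FPKM, which scales fragments to the length of a gene and to the depth of the library, was used to compare levels between genes. The order of the genes therefore depends on the gene lengths used. In WT control muscle B2m was the most abundant of the 10 (60.9 ± 7.86 FPKM, SD, n = 12), followed by H2-D1 (33.5 ± 3.91) and H2-K1 (28.9 ± 3.67). Tapbp (7.99 ± 1.09), H2-Q4 (6.59 ± 1.08), H2-T22 (5.82 ± 0.734) and H2-T23 (3.93 ± 0.358) came next. Tap1 (1.03 ± 0.232), H2-Q6 (0.377 ± 0.161) and H2-Q7 (0.342 ± 0.190) were low. The order of H2-D1 over H2-K1 was found in 12 of 12 WT control libraries although their ranges overlapped, and that of Tapbp over H2-Q4 in 10 of 12. H2-Q4 stood above H2-T22 in 8 libraries and H2-Q6 above H2-Q7 in 7, and these neighbours did not differ beyond their spread. The ranges of the other neighbours in this order did not overlap. Over the 48 libraries H2-K1 had more counts than H2-D1 (85045 against 83819) but was scaled to 2938 against 2579 bases. Their longest coding transcripts held 1663 and 2125 bases. H2-Q7 had more counts than H2-Q6 (2198 against 948) and was scaled to 4265 against 2085 bases. H2-Q6 had 1 to 77 counts in a library and H2-Q7 had 11 to 127, against 1062 to 3916 for H2-K1, so the folds of these low genes are the least precise.

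In WT mice, 10 of 10 genes had a higher mean in KPC than in control muscle, and 4 of them were called higher with the 6 times averaged (H2-D1, H2-Q4, H2-Q7 and Tap1; edgeR, adjusted p below 0.05 over all 15637 genes tested). The background for this count is that 1.16% of all tested genes were called higher (182 genes, with 98 called lower). The median log2 fold change of the 10 genes was 0.40, against 0.0016 over all tested genes.

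Tap1, whose product forms the peptide pump with Tap2, ranged from 0.677 to 1.56 FPKM in WT control libraries with a median of 1.02, and from 1.48 to 3.03 FPKM with a median of 1.76 in WT KPC libraries. All but 1 of the KPC libraries lay above the highest control library. Its level was 1.89-fold higher in KPC (log2 fold change 0.92 ± 0.20, SE, adjusted p = 0.0141).

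H2-Q7, a Qa-2 heavy chain gene, ranged from 0.167 to 0.816 FPKM in control (median 0.273) and from 0.404 to 1.59 FPKM in KPC (median 0.811). The groups overlapped: the control libraries of CT38 replicate 1 (0.816 FPKM), CT26 replicate 1 (0.608 FPKM) and CT34 replicate 1 (0.404 FPKM) reached into the KPC range. It had the largest fold of the 10 genes, 2.52-fold (log2 fold change 1.33 ± 0.24, SE, adjusted p = 0.00228). Its FPKM in the 2 libraries at CT30 was 0.275 and 0.172 in control and 1.25 and 1.59 in KPC.

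H2-D1, a classical heavy chain, ranged from 26.6 to 40.4 FPKM in control (median 32.6) and from 38.3 to 52.7 in KPC (median 42.6). The log2 fold change was 0.37 ± 0.10 (SE, adjusted p = 0.0427). H2-Q4, a nonclassical heavy chain, ranged from 4.97 to 9.02 FPKM in control (median 6.71) and from 5.81 to 12.3 in KPC (median 9.68), with a log2 fold change of 0.50 ± 0.13 (SE, adjusted p = 0.0451).

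The other 6 genes did not pass the threshold. H2-K1, the other classical heavy chain, missed it narrowly: it ranged from 24.9 to 36.2 FPKM in control (median 27.1) and from 30.7 to 48.7 in KPC (median 40.2), with a log2 fold change of 0.44 ± 0.12 (SE, adjusted p = 0.0596). B2m, the light chain shared by all class I molecules, ranged from 50.4 to 70.8 FPKM in control and from 57.7 to 98.1 in KPC (log2 fold change 0.35 ± 0.12, SE, adjusted p = 0.140). The values were 0.65 ± 0.33 for H2-Q6, 0.30 ± 0.12 for H2-T23, 0.22 ± 0.10 for H2-T22 and 0.16 ± 0.06 for the tapasin gene Tapbp (log2 fold change ± SE), with adjusted p from 0.152 to 0.345. Which genes passed depended on single libraries: when each of the 48 libraries was left out in turn, the count of called genes ran from 2 to 6, Tap1 and H2-Q7 were called in 48 of 48 fits, and H2-D1 and H2-Q4 in 20. The FoxP1SkmKO control CT18 replicate 2 library enters this comparison through the shared estimate of the spread. Without it the log2 fold changes stayed at 0.44 for H2-K1 and 0.35 for B2m. The backgrounds over all genes of these refits are not given. Their counts therefore do not show whether the class I genes differed from all other genes.

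In FoxP1SkmKO mice, 0 of the 10 genes were called in KPC against control, and 2 (H2-Q4 and Tap1) had an unadjusted p below 0.05. Of all tested genes 0.134% were called higher (21 genes, with 46 lower). All 10 differences were positive, from 0.09 for Tapbp to 0.46 for H2-Q7 on the log2 scale, with a median of 0.19. Tap1 ranged from 0.647 to 3.42 FPKM in FoxP1SkmKO control libraries (median 0.990) and from 0.895 to 2.31 FPKM in FoxP1SkmKO KPC libraries (median 1.83), a log2 fold change of 0.45 ± 0.19 (SE, adjusted p = 0.326). H2-K1 ranged from 20.3 to 72.1 FPKM in control (median 29.4) and from 24.2 to 50.0 in KPC (median 37.6), so that the control range enclosed the KPC range. B2m ranged from 46.1 to 156.1 FPKM in control (median 58.3) and from 57.9 to 90.3 in KPC (median 73.3). H2-Q7 ranged from 0.260 to 1.67 FPKM in control (median 0.445) and from 0.268 to 1.15 in KPC (median 0.770). Without FoxP1SkmKO control CT18 replicate 2, the log2 fold change rose from 0.18 to 0.36 for H2-K1 and from 0.18 to 0.33 for H2-D1. It rose from 0.11 to 0.29 for B2m and from 0.45 to 0.70 for Tap1.

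Whether the tumor difference itself differed between the genotypes was tested with the interaction term, which called 0 of all tested genes in edgeR (0%; 1020 had an unadjusted p below 0.05) and 0 of the 10. All 10 estimates were smaller in FoxP1SkmKO than in WT mice. H2-Q7 had the largest, with a log2 difference of -0.87 ± 0.33 (SE, 95% interval -1.55 to -0.20, adjusted p = 0.764), and Tap1 had -0.47 (95% interval -1.03 to 0.10). Without FoxP1SkmKO control CT18 replicate 2 the median of the 10 estimates moved from -0.22 to -0.05. The estimate for H2-K1 moved from -0.26 to -0.07, that for Tap1 from -0.47 to -0.22 and that for H2-Q7 from -0.87 to -0.72. Those for H2-Q6 and H2-T22 changed sign to 0.02 and 0.08. With all libraries, the intervals of the genes other than H2-Q7 included 0, which leaves room for differences of either sign.

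**Figure D1:**
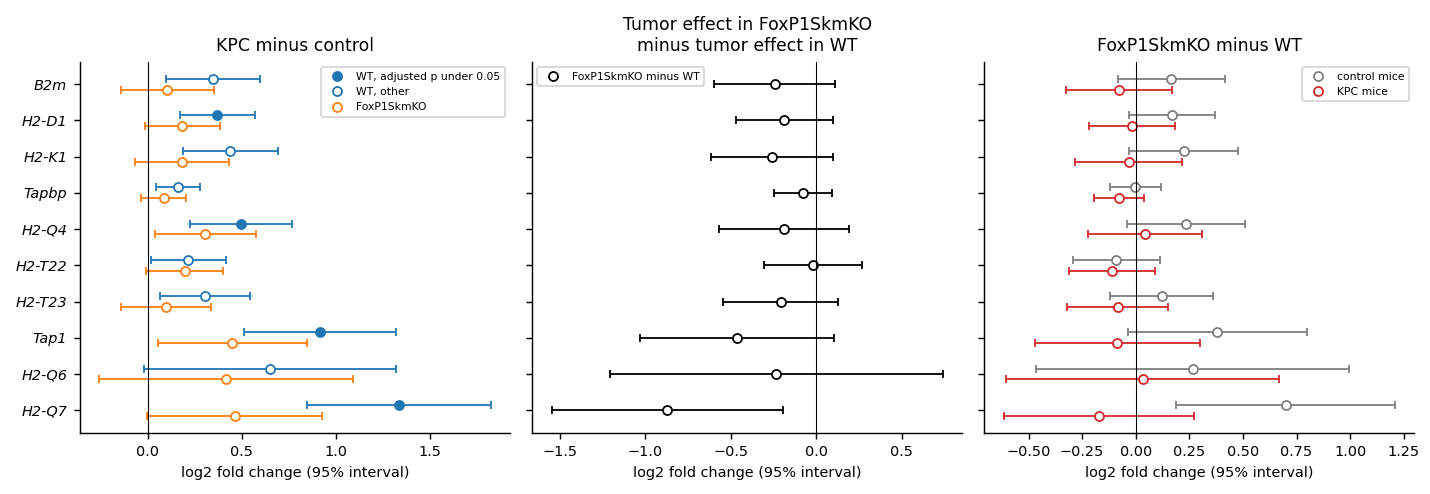
Log2 fold change of each gene (point, with its 95% interval as a bar) for KPC against control in WT, KPC against control in FoxP1SkmKO (KO), and FoxP1SkmKO against WT in control and in KPC muscle. Filled points passed an adjusted p of 0.05, which in WT were H2-D1, H2-Q4, H2-Q7 and Tap1 and in the other panels none.

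Between the genotypes, 0 of the 10 genes were called in control muscle and 0 in KPC muscle, where 3.44% and 0.32% of all tested genes were called in either direction. FoxP1SkmKO control muscle had estimates from -0.09 to 0.70 on the log2 scale against WT control, the highest being H2-Q7 (0.70 ± 0.25, SE, adjusted p = 0.118), and 8 of 10 were positive with a median of 0.20. Without FoxP1SkmKO control CT18 replicate 2 the median was 0.02 and 6 were positive: H2-Q7 had 0.55, Tap1 went from 0.38 to 0.13, H2-K1 from 0.22 to 0.04 and H2-D1 from 0.17 to 0.02, and B2m and H2-T23 changed sign to -0.02 and -0.03. In KPC muscle the estimates lay between -0.17 and 0.04. The SD of H2-K1 was 15.3 FPKM in FoxP1SkmKO control libraries and 3.67 to 6.53 FPKM in the other 3 kinds of library, and that of B2m was 30.8 FPKM against 7.86 to 11.3 FPKM. Beside FoxP1SkmKO control CT18 replicate 2, where Tap1 reached 3.42 FPKM against 0.732 in replicate 1, the replicates of CT22 (2.43 and 0.842 FPKM) and CT26 (2.74 and 1.12 FPKM) differed by more than those of any WT control time. Without CT18 replicate 2 the SD was 10.3 FPKM for H2-K1 and 15.2 FPKM for B2m (n = 11). The CT22 library high in Tap1 is also one of those holding liver transcripts. Without the 2 libraries richest in these, 0 of the 10 genes were called between genotypes in control muscle, and the estimate for H2-Q7 was 0.58.

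At single times, with 2 mice in each group, no gene of the set was called at any time in either genotype. The background over all tested genes in WT mice was 0% at CT18, 0% at CT22, 7.17% at CT26, 0.0064% at CT30, 0% at CT34 and 0.0256% at CT38, and in FoxP1SkmKO mice 0.0192%, 0%, 0.0384%, 0%, 0% and 0.0064% at the same times. In WT mice 10, 8, 9, 10, 10 and 10 of the 10 estimates were positive from CT18 to CT38, with a median between 0.24 and 0.57 on the log2 scale, the highest at CT30. H2-Q7 at CT30 had the largest (log2 fold change 2.65 ± 0.60, SE, adjusted p = 0.433), and Tap1 had 1.61 at that time. In FoxP1SkmKO mice 3, 3, 1, 10, 10 and 10 were positive, with medians of -0.13, -0.01 and -0.16 at CT18, CT22 and CT26 and of 0.42, 0.39 and 0.69 at CT30, CT34 and CT38. The CT18 values rested on FoxP1SkmKO control CT18 replicate 2. Without it, 10 of 10 were positive at CT18 with a median of 0.76, among them H2-K1 at 0.82 and Tap1 at 1.40 with 1 control library left, and 0 were called. The counts at CT22 and CT26 were then 4 and 1. At CT38 the estimate was 0.77 for H2-K1 and 1.33 for Tap1. A test of whether the tumor difference varied over the times called 0 of the 10 in either genotype, with a background of 0.883% in WT and 0% in FoxP1SkmKO mice. The lowest adjusted p was that of H2-T22 in FoxP1SkmKO mice (0.507).

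A sinusoid of 24 h was fitted to the FPKM of each group of 12 libraries, to describe rhythm. In WT KPC muscle 2 of the 10 genes had an unadjusted p below 0.01 (F-test on the sinusoid), against a background of 4.22% of 27396 genes. The backgrounds of the sinusoid fits are over all genes whose FPKM varied, without the filter on low counts. They are not directly comparable with those of the edgeR tests. H2-Q4 had an amplitude of 25.4% of its mean level and a peak 6.02 h after CT0 or CT24, that is near CT30 (adjusted p = 0.121). H2-Q7 had an amplitude of 46.2% and a peak at 6.69 h (adjusted p = 0.201). H2-Q4 in WT KPC libraries went from 6.79 and 5.81 FPKM at CT18 to 11.7 and 10.3 at CT30 and to 7.46 and 9.63 at CT38. In WT control, FoxP1SkmKO control and FoxP1SkmKO KPC muscle 0 of the 10 passed, with backgrounds of 4.92%, 4.07% and 2.63%. The difference in rhythm between KPC and control was below an unadjusted p of 0.01 for 0 of the 10 in WT (background 0.963%) and in FoxP1SkmKO mice (background 1.09%), and H2-Q4 and H2-Q7 in WT mice both had an adjusted p of 0.752. The sampled span of 20 h was shorter than the fitted period.

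The 10 genes varied together from library to library. Over the 48 libraries, Pearson's r of log2 CPM between 2 of them ran from 0.46 to 0.97 with a median of 0.74 (45 pairs). With each group's mean subtracted, so that only differences between mice of 1 group remained, it ran from 0.49 to 0.98 with a median of 0.71. The highest was that of H2-D1 with H2-K1 and the lowest that of H2-T23 with H2-Q6. Without FoxP1SkmKO control CT18 replicate 2 the medians were 0.72 over 47 libraries and 0.62 with group means subtracted (46 libraries, its group left out). The points share libraries and depth, and several of the heavy chain genes also share some sequence. Of stretches of 50 bases, H2-K1 shared 6.75% with H2-D1 and H2-Q4 shared 7.65% with H2-Q6. No test was made.

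By the same measure, several genes of the lists described next were close to the average of the 10. Over the 48 libraries Psmb8 of the immunoproteasome had r = 0.87, the GTPase gene Iigp1 0.84 and the heavy chain gene H2-Q5 0.83. Each was the highest of its list. The list medians were 0.55 for the immunoproteasome, 0.64 for the interferon-induced genes and 0.49 for the further heavy chains. With group means subtracted these medians were 0.72, 0.70 and 0.35. Leaving out all listed genes, those whose profile over 48 libraries was most like the average of the 10 were Cd274 (r = 0.81), which encodes the checkpoint ligand PD-L1, Uba7 (0.72), the activating enzyme of the interferon-induced modifier ISG15, Apol10b (0.72), Wars (0.69), a tryptophan-tRNA ligase, and Samhd1 (0.66), an antiviral dNTP hydrolase. They were the first 5 of the 9801 unlisted genes with a mean of at least 1 FPKM, where the median r was 0.011. With group means subtracted, Iigp1 (0.89), H2-Q5 (0.87) and Psmb8 (0.85) were again above the unlisted genes, of which Cd274 was first (0.78), followed by Samhd1 (0.75), Apol10b (0.74), the guanylate-binding protein gene Gbp9 (0.71) and Ndufaf2 (0.71), an assembly factor of mitochondrial complex I. Without FoxP1SkmKO control CT18 replicate 2 and its group, these were 0.80 for Cd274, 0.72 for Apol10b and 0.73 for Gbp9, and lower for Samhd1 (0.60) and Ndufaf2 (0.52).

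Other genes of the pathway were taken from lists set out beside the 10. Of 14 further heavy chain genes that matched, 5 passed the filter on low counts and 0 were called in WT KPC against WT control, with H2-Q5 at a log2 fold change of 0.57 ± 0.19 (SE, adjusted p = 0.116) and H2-M3 at 0.27 ± 0.18 (SE, adjusted p = 0.507). Of 7 further loading genes 1 was called higher, Tap2, the partner subunit of Tap1 (0.31 ± 0.08, SE, adjusted p = 0.0455), while Calr, the calreticulin chaperone, had 0.04 ± 0.03 (SE, adjusted p = 0.615). Of 5 immunoproteasome genes 0 were called. The most abundant, the activator subunit Psme1 and the catalytic subunit Psmb10, had 0.12 ± 0.06 and 0.06 ± 0.09 (log2 fold change ± SE), and the catalytic subunits Psmb8 and Psmb9 had 0.60 ± 0.18 (SE, adjusted p = 0.0769) and 0.55 ± 0.15 (SE, adjusted p = 0.0584). The 3 catalytic subunits that they replace in the constitutive proteasome were not called, with a median of -0.10. Of 27 other tested genes of the H2 region 2 were called higher, Tap2 again and the complement gene C4b (0.95).

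Transcription factors of the interferon pathway and the genes they induce came next. Of 15 regulators 4 were called higher in WT KPC muscle: Nlrc5, the class I transactivator (log2 fold change 0.86 ± 0.22, SE, adjusted p = 0.0315), Irf1 (0.43 ± 0.11, SE, adjusted p = 0.0380), Irf9 (0.45 ± 0.08, SE, adjusted p = 0.00274) and Stat2 (0.39 ± 0.09, SE, adjusted p = 0.0257). Of 20 interferon-induced genes 20 had a positive estimate and 6 were called higher, the GTPase genes Gbp2 (0.73), Gbp4 (1.39), Gbp7 (0.64), Iigp1 (1.20), Tgtp1 (1.87) and Tgtp2 (1.31). The receptor genes for interferon gave 0 calls, and the interferon genes themselves were at or near 0 FPKM, the highest value of Ifng being 0.144 FPKM. In FoxP1SkmKO mice none of these genes was called, Nlrc5 had 0.26 ± 0.21 (SE, adjusted p = 0.669) and Gbp4 had 0.60 ± 0.23 (SE, adjusted p = 0.240), and the interaction term called none of them. With group means subtracted, r with the average of the 10 genes was 0.85 for Nlrc5 and 0.80 for Irf1. These were the highest of the 15 regulators, whose median was 0.29 (-0.27 to 0.85). The median was 0.70 over the interferon-induced genes. Without FoxP1SkmKO control CT18 replicate 2 and its group, r was 0.80 for Nlrc5 and 0.68 for Irf1. The medians were then 0.19 over the regulators and 0.51 over the interferon-induced genes.

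Some markers of other cells that carry class I were called in WT KPC against WT control as well. In bulk muscle, fewer cells of a type and less RNA per cell cannot be told apart. Of 5 pan-leukocyte markers all 5 had a positive estimate, and only Ptprc (CD45) was called higher (0.80 ± 0.22, SE, adjusted p = 0.0467). The mean of Ptprc over all libraries was only 0.12 FPKM. The summed FPKM of the 5 markers ran from 2.14 to 5.73 in WT control (median 2.78) and from 2.17 to 6.94 in WT KPC libraries (median 4.47). In FoxP1SkmKO libraries it ran from 1.67 to 10.2 in control and from 2.02 to 5.07 in KPC. With the leukocyte markers' level added to the model, 0 of the 10 class I genes were called in WT mice, and the estimates went from 1.33 to 1.12 for H2-Q7 (adjusted p = 0.0728), from 0.92 to 0.63 for Tap1 and from 0.37 to 0.20 for H2-D1. The number of called genes over the whole table fell to 56 in that fit. Of 8 tested MHC class II genes 4 were called higher (H2-Aa 0.59, H2-Eb1 0.67, Cd74 0.57 and the class II transactivator Ciita 0.74). Of 3 tested neutrophil markers 2 were called higher, S100a8 (2.83) and S100a9 (2.06), whose means over all libraries were only 0.37 and 0.82 FPKM. In FoxP1SkmKO mice the estimates of S100a8 and S100a9 were 3.21 and 2.31, and neither was called.

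Of the 9 macrophage markers 0 were called, and their summed level ran from 13.2 to 48.5 FPKM in WT control and from 18.4 to 75.2 in WT KPC. Of the 9 endothelial markers, whose sum ran from 81.6 to 126.4 FPKM in WT control and from 87.2 to 114.8 in WT KPC, only Kdr was called, and it was lower (-0.27). Of the fibroblast markers Col1a1 (-0.91) and Col3a1 (-0.71) were called lower. T and natural killer cell markers summed to 0.2 to 0.902 FPKM in WT control and to 0.225 to 1.62 in WT KPC, with Cd8a at 0.149 FPKM or less in every library. With group means subtracted, the median r with the average of the 10 genes was 0.38 over the leukocyte, 0.09 over the macrophage, 0.23 over the endothelial and -0.41 over the fibroblast markers. Without FoxP1SkmKO control CT18 replicate 2 and its group these were 0.13, -0.08, 0.26 and -0.55. In FoxP1SkmKO control CT18 replicate 2, the library highest in class I, the sums were 146.7 FPKM for the interferon-induced genes, 144.1 for MHC class II, 10.2 for leukocyte and 3.77 for T and natural killer markers, each the highest of the 48 libraries, and 96.0 for endothelial markers, within the range of the others. Of the lists for class I-like molecules, dendritic cells, satellite cells, adipocytes, erythroid cells, muscle fibers and liver 0 genes were called in WT mice, and none of the B cell, pancreas or interferon ligand genes passed the filter. The leukocyte markers themselves moved with the tumor in WT mice, so the fit with them cannot give the part of leukocytes in the class I levels. The part of the other cells was not tested.

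**Figure D2:**
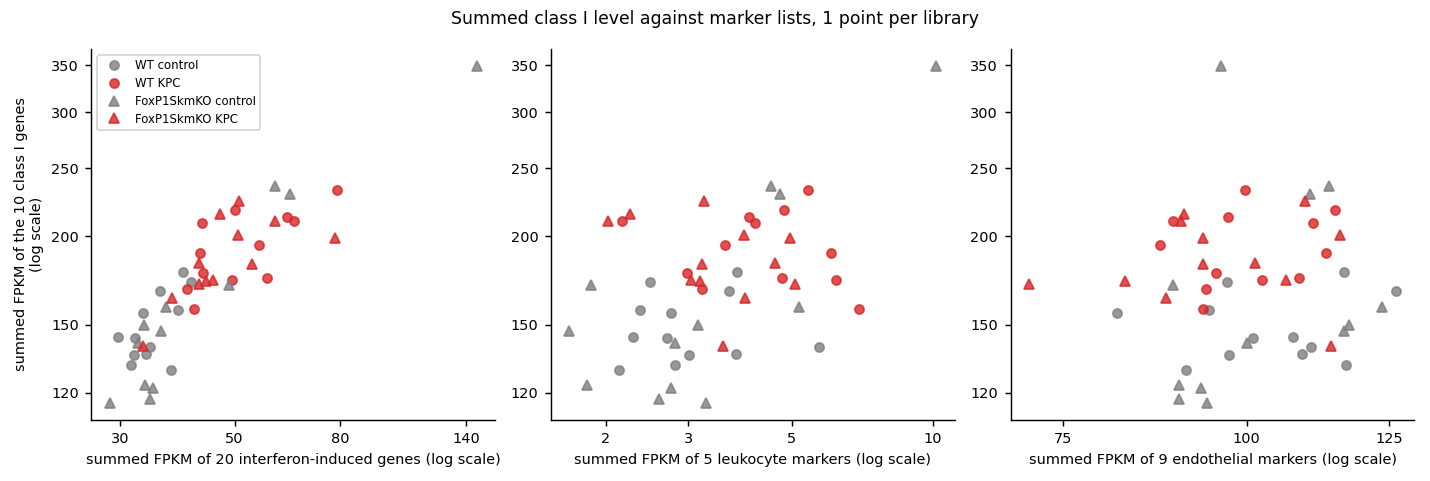
Summed FPKM of the 10 class I genes (vertical, log axis) against the summed FPKM of 20 interferon-induced genes, 5 leukocyte markers and 9 endothelial markers (horizontal, log axes), 1 point per library, with KO for FoxP1SkmKO. The class I sum rises with the interferon-induced genes, more loosely with the leukocyte markers, and the endothelial sum shows no such order; FoxP1SkmKO control CT18 replicate 2 is the highest point (348.8 FPKM).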

How the data were processed

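Poly(A) RNA of 48 TA muscles, 1 library per mouse, was sequenced, and per the labels the reads were aligned to mm39 (the submitters' processing notes name HISAT2 2.0.5 and DESeq2 1.20.0, the study's methods name STAR and HTSeq). Whether the libraries were directional is not given in the sources used here, so antisense reads cannot be told apart. The authors deposited raw counts per gene in 12 tables of 4 libraries and FPKM (fragments scaled to gene length and library depth) of all libraries in 1 table. The fold changes and p-values in the count tables were not used. Of 28726 genes listed in a count table, 10860 were absent from at least 1 table, and their counts there, at most 1, were recovered from the deposited FPKM, which no count of the 10 genes needed.

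Counts were tested with edgeR 4.0.16 (R 4.3.3): TMM scaling, filterByExpr (15637 genes kept, all 10 class I genes among them), 1 coefficient per group, 24 residual degrees of freedom and the quasi-likelihood F-test with Benjamini-Hochberg adjustment over all kept genes. Tumor and genotype differences averaged the 6 times with equal weight. A sinusoid of 24 h was fitted to FPKM by least squares (F-test with 2 and 9 degrees of freedom, unadjusted p below 0.01). Profiles were compared by Pearson's r of log2 CPM with a prior count of 2. Replicates are separate mice. Motifs were searched in RefSeq promoters of GRCm38.p6, used for sequence only, and shared transcript stretches were counted in the GENCODE transcripts of GRCm39.

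The class I genes and all gene lists were chosen with earlier results of these data known. The lists were further heavy chains, class I-like molecules, peptide loading, immunoproteasome and constitutive proteasome subunits, regulators, interferon ligands, receptors and induced genes, MHC class II, neighbours in the H2 region, and markers of leukocytes, T and natural killer cells, B cells, macrophages, dendritic cells, neutrophils, endothelium, fibroblasts, satellite cells, adipocytes, erythroid cells, muscle fibers, liver and pancreas. Named were the 10 genes, those of each list past the threshold or, where none was, those with the highest mean FPKM for the lists of the pathway, and the 5 genes outside the lists with the most similar profile. Psmb8, Psmb9, Calr, Ifng, Cd8a and the values in FoxP1SkmKO mice were added after their values were seen. Alternatives were DESeq2 1.42.0, limma 3.58.1 on log2(FPKM + 1) and log2(FPKM + 0.1), no filter, a replicate block, a leukocyte covariate, and leaving out each library or time.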

Additional observations from a re-analysis of the deposited data

How the results depend on the processing

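Each count in this section is of the 10 class I genes called. Where no number over all genes stands beside a count, the background of that fit is not given. Such a count does not show whether the class I genes differed from all other genes. For KPC against control in WT mice (4 called), 9 were called with no filter on low counts (824 of 28726 genes in all), 0 with the leukocyte covariate, 2 with limma on log2(FPKM + 1) and on log2(FPKM + 0.1), 2 without CT22, CT26 or CT34, 1 without CT30, and 2 to 6 when each library was left out. The other alternatives gave 3 to 5, among them DESeq2 with 5. With no filter the counts were 6 in FoxP1SkmKO mice, 3 for the difference between genotypes and 6 for the genotypes in control muscle, all 0 with the filter. Leaving out a library gave 0 to 1 for KPC in FoxP1SkmKO mice and 0 to 2 for the genotypes in control muscle, where FoxP1SkmKO control CT18 replicate 1 gave the 2 (H2-K1 and H2-D1). In KPC muscle the genotypes gave 0 under every alternative run. The cause of these changes was not tested.

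At single times (0 called at each), no filter gave 1, 4, 3, 7, 6 and 1 from CT18 to CT38 in WT mice and 1, 4, 1 and 7 at CT18, CT30, CT34 and CT38 in FoxP1SkmKO mice. Fits on the 4 libraries of a comparison gave 1, 2 and 2 at CT18, CT26 and CT30 in WT and 3 at CT38 in FoxP1SkmKO mice with edgeR, and 1, 2, 5 and 3 at CT22, CT26, CT30 and CT34 in WT and 3 at CT38 in FoxP1SkmKO mice with DESeq2. Variation over the times gave 2 in WT and 8 in FoxP1SkmKO mice with no filter. Rhythm in WT KPC muscle (2) gave 0 after Benjamini-Hochberg adjustment and 1 to 2 when a library was left out, and that in FoxP1SkmKO control muscle 0 to 1.

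Estimates of the difference between genotypes that changed sign were those of H2-T22 (0.0769) and H2-T23 (0.017) with the leukocyte covariate, H2-T22 without CT18 (0.0207) and without CT26 (0.0882), H2-Q6 without CT26 (0.0226), and H2-T22 without the 2 libraries highest in liver transcripts (0.0228), an alternative chosen after seeing the data, as were the correlations without FoxP1SkmKO control CT18 replicate 2. Leaving out each library gave -0.78 to 0.0563 for H2-Q6 and -0.11 to 0.0773 for H2-T22. A group left with 1 library was assumed to vary like the others.

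The replicate numbers did not pair the mice: over 276 pairs of groups the correlation of same-numbered deviations had a median of -0.004 (-0.32 to 0.23). With the number as a replicate block 3 genes were called in WT mice, H2-Q4 having an adjusted p of 0.0509.

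Differences at single times rest on 2 mice per group, and the low counts of H2-Q6 and H2-Q7 limit their precision.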
